A study of Mus musculus with 6 samples.

Results

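Brown adipose tissue (BAT) takes up branched-chain amino acids, and 10 genes of their breakdown were followed here: *Bcat1*, *Bcat2*, *Bckdha*, *Bckdhb*, *Dbt*, *Bckdk*, *Ppm1k*, *Ivd*, *Mccc1* and *Hibch*. They were chosen by symbol from the 47729 genes quantified in every sample, and all 10 were found once and passed the filter on low counts. RNA was sequenced from the right interscapular BAT of 3 LFD-fed and 3 HFD-fed mice, all male, wild-type C57BL/6J, housed singly and fed from 6 to 10 weeks of age. The labels call the HFD a 45% fat diet and the LFD a standard rodent diet, so the diets may differ in more than fat content. The mice were picked from larger groups for their fat mass (greatest, middle and least). Both groups share strain, sex and genotype.

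Leucine, isoleucine and valine lose their amino group in a first, reversible step by the branched-chain aminotransferases, the cytosolic BCAT1 and the mitochondrial BCAT2. The resulting keto acids are committed to breakdown by the branched-chain keto acid dehydrogenase complex of the mitochondrial matrix, which the kinase BCKDK switches off by phosphorylation and the phosphatase PPM1K switches on again. Separate arms then turn the leucine, isoleucine and valine skeletons into acetyl-CoA, acetoacetate or propionyl-CoA, which brown adipocytes can burn.

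Each library held between 17156991 and 21603487 rounded counts, of which the members had between 6626 (LFD replicate 3) and 23402 (LFD replicate 1). LFD replicate 3 stood apart. It had the lowest log2 CPM of all mice for 9 of the 10 members and the highest for *Bcat1*. It also had the smallest share of counts from the mitochondrial genome (3.87%, against 8.50% to 22.7% in the other mice). Here log2 CPM is counts scaled to library sizes that were adjusted with TMM factors. These factors ran from 0.745 (LFD replicate 1) to 1.21 (HFD replicate 3). The brown adipocyte markers were present in every mouse, with *Ucp1* at 11.03 to 443 TPM in LFD-fed and 796 to 4021 TPM in HFD-fed mice (TPM is a relative transcript level, scaled per length of the gene). Skeletal muscle markers differed between the diets, with a summed level of 2288 to 16077 TPM in LFD-fed and 31.9 to 416 TPM in HFD-fed mice over 20 genes. Of these, 19 were lower in every HFD-fed mouse than in every LFD-fed mouse (9.23% of all genes). None was at 0 counts in any mouse. The 12 macrophage markers summed to 547, 2574 and 4556 TPM in LFD and 2001, 2760 and 4669 TPM in HFD replicates 1 to 3. Among 11 tested T and NK cell markers, 9 were higher in every HFD-fed mouse than in every LFD-fed mouse (6.72% of all genes). The part of muscle or immune cell RNA in the values below was not tested. In bulk tissue fewer cells of a type and less RNA per cell cannot be told apart.

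Sequences just before the start of 3 members are given because these genes stand on opposite sides of the diet pattern described below: *Bcat2* and *Mccc1* were low relative to the dehydrogenase subunits in HFD-fed mice, and *Bckdhb* is such a subunit. The windows are from RefSeq (build GRCm38.p6), cover the 250 bases before the start, and are written 5′ to 3′ along the gene. RefSeq windows matched 9 of the 10 members, and *Bcat1*, *Bcat2* and *Bckdhb* have a second window, which is not printed. Capitals mark the letters of CCAAT, of the GC box GGGCGG or of CACCC on either strand. The windows are chr7:45569903-45570152 on the plus strand for *Bcat2*, chr3:36000679-36000928 on the minus strand for *Mccc1*, and chr9:83924887-83925136 on the plus strand for *Bckdhb*.
Bcat2: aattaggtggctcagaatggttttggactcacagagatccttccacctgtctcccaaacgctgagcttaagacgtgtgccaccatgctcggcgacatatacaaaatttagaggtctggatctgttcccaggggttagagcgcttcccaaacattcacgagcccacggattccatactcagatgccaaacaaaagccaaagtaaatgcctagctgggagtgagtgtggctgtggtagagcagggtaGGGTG
Mccc1: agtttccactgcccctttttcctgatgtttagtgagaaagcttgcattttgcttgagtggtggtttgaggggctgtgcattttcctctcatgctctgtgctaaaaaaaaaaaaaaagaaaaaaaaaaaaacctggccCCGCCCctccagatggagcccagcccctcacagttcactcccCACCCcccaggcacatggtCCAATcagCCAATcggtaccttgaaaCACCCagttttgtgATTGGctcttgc
Bckdhb: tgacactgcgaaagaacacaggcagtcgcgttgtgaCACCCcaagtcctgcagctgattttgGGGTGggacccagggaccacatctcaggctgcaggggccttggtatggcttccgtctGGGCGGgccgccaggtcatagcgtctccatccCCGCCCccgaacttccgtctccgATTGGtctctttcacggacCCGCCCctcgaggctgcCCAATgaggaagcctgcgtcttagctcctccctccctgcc

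The *Bcat2* window held no CCAAT, no GC box and 1 CACCC. The *Mccc1* window held 3 CCAAT, 1 GC box and 2 CACCC, and the *Bckdhb* window held 2 CCAAT, 3 GC boxes and 2 CACCC. The second windows of *Bcat2* (chr7:45571029-45571278) and *Bckdhb* (chr9:83948531-83948780) held 0 of these motifs. Over all 32851 promoter windows of the same length, 33.8% held CCAAT, 32.7% the GC box and 52.0% CACCC, so none of these letters is rare. The matches are descriptions of sequence, and CACCC and the GC box can overlap in part.

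The first question was whether the members differed between the diets. No member did at the thresholds of the study, an adjusted p under 0.01 together with a log2 fold change beyond 1.5 in either direction. Likewise, of the 17668 genes tested with edgeR's quasi-likelihood test 0% were called lower and 0% higher, while 1169 (6.62%) were lower and 682 (3.86%) higher at an unadjusted p under 0.05. Of the members, 0 were lower and 0 higher at that unadjusted p, 5 had a log2 fold change above 0 (45.6% of all genes) and 5 below (54.4%), and their median was -0.00 beside -0.05 over all genes. The study applied its thresholds to DESeq2, not edgeR. Rerun here, DESeq2 called 306 genes lower and 106 higher, and none of the members. All 10 members overlapped between the diets, beside 9.23% of all genes that were lower and 6.72% that were higher in every HFD-fed mouse. The plot of TPM by mouse shows this overlap for each gene.

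**Figure D1:**
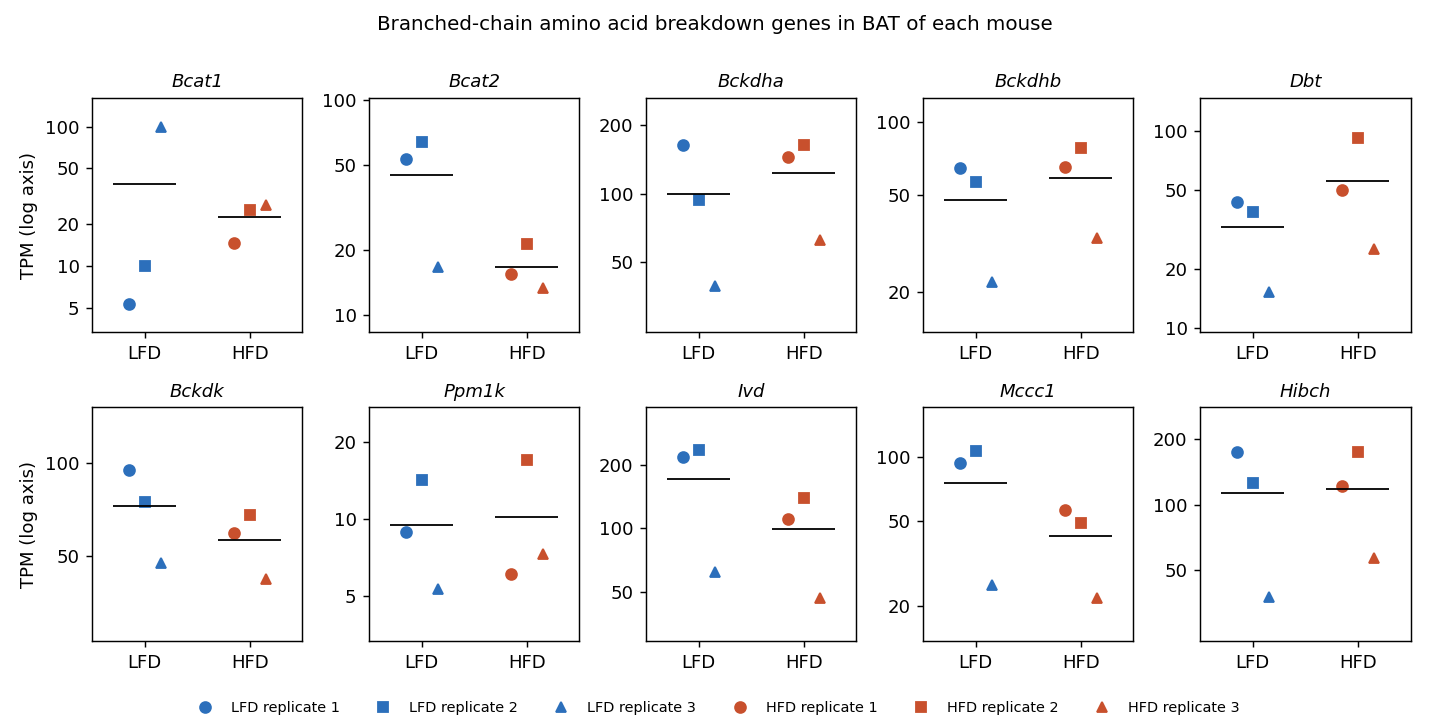
TPM (log axis) of each of the 10 members in BAT of each mouse; blue points are LFD-fed, orange points HFD-fed mice, the symbol gives the replicate number (circle 1, square 2, triangle 3) and the horizontal line is the mean of 3 mice. Replicate 3 is the lowest point of the LFD-fed mice in every panel but *Bcat1*, where it is highest at 99.9 TPM, and the diets overlap in every panel.

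*Bcat2*, the mitochondrial aminotransferase (chromosome 7, 45570153 to 45589711, GRCm38, plus strand), had the lowest ratio of HFD to LFD among the members. Its level was 15.5, 21.4 and 13.3 TPM in HFD replicates 1 to 3, and 53.3, 64.0 and 16.6 TPM in LFD replicates 1 to 3. LFD replicates 1 and 2 were far above all HFD-fed mice, and LFD replicate 3 lay among them. The log2 fold change was -1.30 ± 0.63 (SE), a level 0.405 times that of LFD-fed mice with a 95% interval of 0.143 to 1.15, and the adjusted p was 0.538 by edgeR's quasi-likelihood test. Blocked on replicate number, it was -1.01 with an unadjusted p of 0.044 and an adjusted p of 0.268 by edgeR. Without LFD replicate 3 it was -1.76, with an adjusted p of 0.074 by edgeR.

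*Bcat1*, the cytosolic aminotransferase (chromosome 6, 144993835 to 145076184, minus strand), went the other way across the mice. Its level was 14.7, 24.96 and 27.1 TPM in HFD replicates 1 to 3, and 5.35, 10.0 and 99.9 TPM in LFD replicates 1 to 3. The HFD-fed mice lay close together, while 1 LFD-fed mouse was above and the other two were below all of them. The log2 fold change was -0.34 ± 0.83 (SE, adjusted p = 0.946, edgeR's quasi-likelihood test), and it was 0.48 with the replicate block, 0.23 on the log2(TPM + 1) scale, and 1.43 without LFD replicate 3 (adjusted p = 0.068, edgeR). The mean log2 CPM of *Bcat1* was 4.46 in LFD-fed mice and 4.89 in HFD-fed mice, so its sign was not settled by these fits. The share of *Bcat2* in the summed TPM of the members was 2.41%, 2.60% and 3.95% in HFD replicates 1 to 3 and 5.79%, 7.82% and 4.49% in LFD replicates 1 to 3, which did not overlap.

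The TPM ratio of *Bcat2* to *Bcat1* sets the mitochondrial against the cytosolic enzyme within a mouse. It was 1.06, 0.860 and 0.491 in HFD replicates 1 to 3 and 9.80, 6.32 and 0.167 in LFD replicates 1 to 3. The diets differed by -1.51 on the log2 scale (exact two-sided permutation test over 20 assignments, p = 0.4, adjusted over 5 ratios p = 0.625). The smallest p that 3 against 3 mice allow is 0.1. The same mouse, LFD replicate 3, had the lowest ratio of all.

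The dehydrogenase complex is built of E1 subunits, coded by *Bckdha* and *Bckdhb*, the E2 core coded by *Dbt*, and the E3 subunit coded by *Dld*. The 3 members of the complex had log2 fold changes above 0, and none passed the test. *Bckdha* (chromosome 7, 25629946 to 25658981, minus strand) was at 145, 163 and 62.3 TPM in HFD and 164, 93.7 and 39.4 TPM in LFD replicates 1 to 3. The 2 diets overlapped widely, and replicate 3 was the lowest mouse of each. Its log2 fold change was 0.38 ± 0.80 (SE, adjusted p = 0.936, edgeR's quasi-likelihood test). In the GENCODE annotation 61.7% of the exon bases of *Bckdha* are also covered by exons of *B3gnt8* on the other strand. *B3gnt8* was at 1.57 to 4.34 TPM in the 6 mice, and whether the counting used the strand is not given in the sources used here.

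*Bckdhb* (chromosome 9, 83925145 to 84124240, plus strand), whose window is printed above, was at 64.9, 78.0 and 33.3 TPM in HFD and 64.2, 56.3 and 21.9 TPM in LFD replicates 1 to 3. Each HFD-fed mouse was above the LFD-fed mouse of the same number, while the groups overlapped. Its log2 fold change was 0.42 ± 0.66 (SE, adjusted p = 0.905, edgeR's quasi-likelihood test), and with the replicate block it was 0.59 (unadjusted p = 0.045, adjusted p = 0.273, edgeR).

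*Dbt* (chromosome 3, 116513070 to 116549981, plus strand) had the highest ratio of HFD to LFD of the members, with 50.3, 91.4 and 25.2 TPM in HFD and 43.8, 39.0 and 15.3 TPM in LFD replicates 1 to 3. HFD replicate 2 was the highest mouse by far, and HFD replicate 3 lay between the LFD-fed mice. The log2 fold change was 0.81 ± 0.66 (SE), 1.75 times the level of LFD-fed mice with a 95% interval of 0.591 to 5.19, and the adjusted p was 0.766 by edgeR's quasi-likelihood test. With the replicate block it was 0.87 (unadjusted p = 0.011, adjusted p = 0.155, edgeR). *Dbt* and *Bckdhb* were higher in all 3 same-numbered pairs on the log2 CPM scale, as were 21.1% of all genes, and no member was lower in all 3 pairs, beside 21.3% of all genes. In TPM the same 2 members were higher in all 3 pairs (11.3% of all genes), and 4 members, *Bcat2*, *Bckdk*, *Ivd* and *Mccc1*, were lower in all 3 (36.9% of all genes).

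The block thus moved the count of members at an unadjusted p under 0.05 from 0 to 3 (*Bcat2* lower, *Bckdhb* and *Dbt* higher), against 8.76% of all genes lower and 8.75% higher in the same edgeR fit. Without LFD replicate 3 there were 2 such members, *Bcat2* lower and *Bcat1* higher, against 9.55% of all genes lower and 7.7% higher. No member passed the study thresholds in either fit.

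Within the complex the proportions of the subunits overlapped between the diets. The TPM ratio of *Bckdhb* to *Bckdha* was 0.449, 0.479 and 0.535 in HFD and 0.391, 0.601 and 0.558 in LFD replicates 1 to 3, a difference of -0.06 on the log2 scale (exact permutation test, p = 0.8, adjusted over 5 ratios p = 0.8). *Dbt* to *Bckdha* was 0.348, 0.562 and 0.406 in HFD and 0.267, 0.416 and 0.390 in LFD replicates 1 to 3, a difference of 0.29 (exact permutation test, p = 0.5, adjusted over 5 ratios p = 0.625). The ratio of *Dbt* was higher in each HFD-fed mouse than in its same-numbered LFD-fed mouse, while the groups overlapped.

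The kinase and the phosphatase set the activity of the complex. *Bckdk*, the kinase (chromosome 7, 127904082 to 127910221, plus strand), was at 59.2, 67.8 and 42.0 TPM in HFD and 95.3, 74.8 and 47.3 TPM in LFD replicates 1 to 3. Its log2 fold change was -0.17 ± 0.50 (SE, adjusted p = 0.955, edgeR's quasi-likelihood test). *Ppm1k*, the phosphatase (chromosome 6, 57506502 to 57535468, minus strand), was the least abundant member in HFD-fed mice, at 6.10, 16.98 and 7.28 TPM, and was at 8.83, 14.1 and 5.31 TPM in LFD replicates 1 to 3. Its log2 fold change was 0.36 ± 0.47 (SE, adjusted p = 0.877, edgeR's quasi-likelihood test). Both genes overlapped between the diets. Replicate 3 was at the bottom of each diet for the kinase only in TPM, and for both genes in log2 CPM.

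Set against its substrate subunit, *Bckdk* to *Bckdha* was 0.410, 0.417 and 0.674 in HFD and 0.580, 0.798 and 1.20 in LFD replicates 1 to 3. The ratio was lower in the HFD-fed mouse of all 3 same-numbered pairs, by -0.76 on the log2 scale (exact permutation test, p = 0.2, adjusted over 5 ratios p = 0.625). The ratio of kinase to phosphatase was 9.56, 3.98 and 5.70 in HFD and 10.7, 5.27 and 8.75 in LFD replicates 1 to 3, a difference of -0.39 (exact permutation test, p = 0.5, adjusted over 5 ratios p = 0.625). It was lower in HFD-fed mice in all 3 pairs too, and with 3 pairs a sign-flip test cannot give a p below 0.25.

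Downstream of the complex, *Ivd* and *Mccc1* of the leucine arm had lower mean values in HFD-fed mice, and *Hibch* of the valine arm did not. *Ivd*, isovaleryl-CoA dehydrogenase (chromosome 2, 118861954 to 118882909, plus strand), was at 111, 140 and 46.5 TPM in HFD and 216, 234 and 61.9 TPM in LFD replicates 1 to 3. LFD replicates 1 and 2 were above all other mice. Its log2 fold change was -0.62 ± 0.76 (SE, adjusted p = 0.865, edgeR's quasi-likelihood test). *Mccc1*, a subunit of the biotin-dependent methylcrotonyl-CoA carboxylase (chromosome 3, 35959312 to 36000678, minus strand), showed the same order of groups, with 56.0, 49.0 and 21.8 TPM in HFD and 93.7, 106 and 25.1 TPM in LFD replicates 1 to 3. Its log2 fold change was -0.61 ± 0.76 (SE, adjusted p = 0.870, edgeR's quasi-likelihood test).

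*Hibch*, 3-hydroxyisobutyryl-CoA hydrolase (chromosome 1, 52844929 to 52920986, plus strand), was at 122, 174 and 56.9 TPM in HFD and 175, 126 and 37.5 TPM in LFD replicates 1 to 3. The groups were intermixed, with a log2 fold change of 0.16 ± 0.77 (SE, adjusted p = 0.973, edgeR's quasi-likelihood test). The plot of fold changes shows how wide the intervals are for all members.

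**Figure D2:**
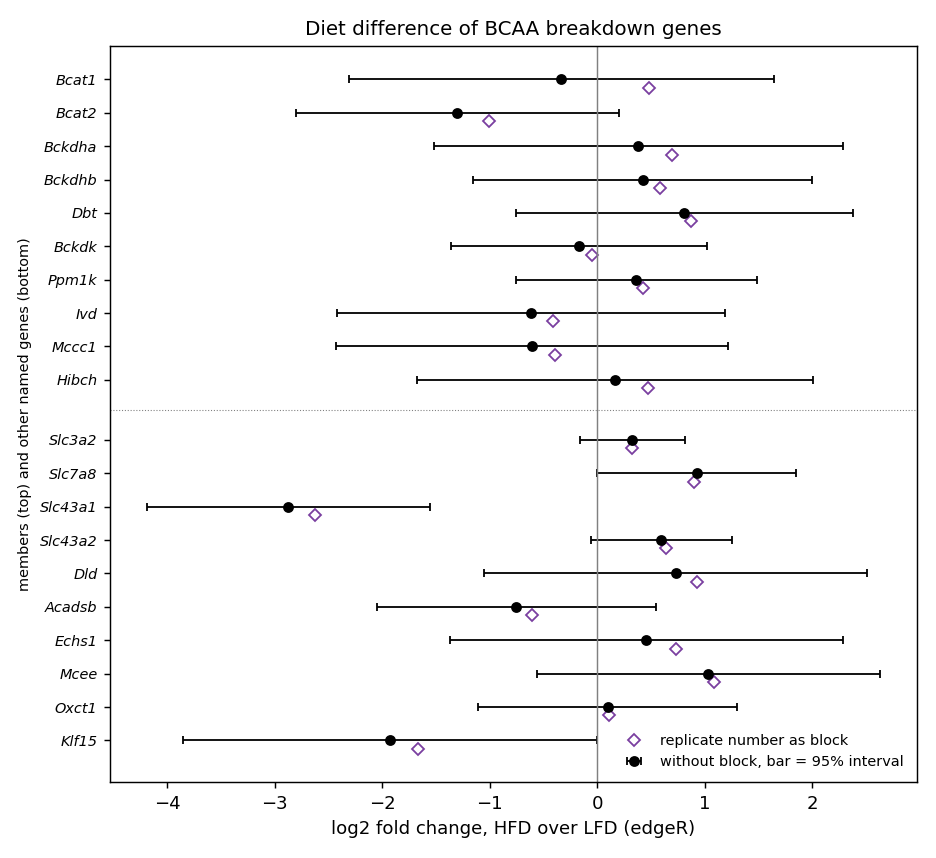
Log2 fold change, HFD over LFD, of the 10 members (top) and of 10 other genes of the pathway (bottom), from edgeR over 6 mice; black points and bars are the fit without a block with its 95% interval, open diamonds the fit blocked on replicate number. Every interval of a member crosses 0, from *Bcat2* at -1.30 to *Dbt* at 0.81, and the diamond of *Bcat1* lies on the other side of 0.

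Levels of members can be ordered within a diet because TPM is per length. In HFD-fed mice the mean order was *Bckdha* (123 ± 53.5 TPM), *Hibch* (117 ± 58.5), *Ivd* (99.0 ± 47.7), *Bckdhb* (58.7 ± 23.0), *Bckdk* (56.3 ± 13.2), *Dbt* (55.7 ± 33.4), *Mccc1* (42.3 ± 18.1), *Bcat1* (22.2 ± 6.66), *Bcat2* (16.7 ± 4.22) and *Ppm1k* (10.1 ± 5.97; SD, n = 3 throughout). In LFD-fed mice it was *Ivd* (171 ± 94.6 TPM), *Hibch* (113 ± 69.8), *Bckdha* (99.1 ± 62.6), *Mccc1* (75.0 ± 43.7), *Bckdk* (72.4 ± 24.1), *Bckdhb* (47.5 ± 22.5), *Bcat2* (44.6 ± 24.8), *Bcat1* (38.4 ± 53.3), *Dbt* (32.7 ± 15.3) and *Ppm1k* (9.42 ± 4.43; SD, n = 3). Neighbours in these orders differed by less than the larger of their SDs, except *Mccc1* over *Bcat1* and *Bcat2* over *Ppm1k* in HFD-fed mice and *Bckdk* over *Bckdhb* and *Dbt* over *Ppm1k* in LFD-fed mice. Within single mice *Bckdha* ranked 1, 2 and 1 in HFD replicates 1 to 3 and 3, 4 and 4 in LFD replicates 1 to 3, while *Ivd* ranked 3 in each HFD-fed mouse and 1, 1 and 2 in the LFD-fed mice. Other ranks varied more between mice of a diet, most of all that of *Bcat1*, which was 9, 8 and 6 in HFD and 10, 10 and 1 in LFD replicates 1 to 3.

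Ratios of members within a mouse do not depend on how libraries are scaled to one another. The ratios below were formed after the values had been seen and are given without a test. Against *Bckdhb*, which shares no annotated exon with another gene, 4 of the 9 other members (*Bcat2*, *Bckdk*, *Ivd* and *Mccc1*) were lower in every HFD-fed mouse, beside 8.01% of all other tested genes set against *Bckdhb* in the same way on the log2 CPM scale. None was higher in every HFD-fed mouse on that scale, beside 0.962% of the other genes. Against *Bckdha* the count was 3 of 9 (*Bcat2*, *Ivd* and *Mccc1*) lower, beside 5.98%, and 0 higher, beside 0.713%. Other genes of the pathway also separated when set against *Bckdhb*. On the log2 CPM scale, *Slc43a1*, *Mccc2*, *Auh*, *Acadsb*, *Hsd17b10*, *Hibadh*, *Aldh6a1*, *Pccb*, *Mut*, *Mmab* and *Klf15* were lower in every HFD-fed mouse. Only *Mcee* was higher in every HFD-fed mouse, and the rest of the other 25 pathway genes, *Echs1* among them, overlapped. The separation was thus not particular to the members.

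The *Bcat2* to *Bckdhb* ratio was 0.239, 0.275 and 0.398 in HFD and 0.830, 1.14 and 0.758 in LFD replicates 1 to 3. *Ivd* to *Bckdhb* was 1.71, 1.79 and 1.39 in HFD and 3.37, 4.15 and 2.82 in LFD replicates 1 to 3. *Mccc1* to *Bckdhb* was 0.863, 0.628 and 0.654 in HFD and 1.46, 1.89 and 1.14 in LFD replicates 1 to 3. Unlike their levels, these ratios put LFD replicate 3 with the other LFD-fed mice. *Bckdk* to *Bckdhb* was 0.911, 0.870 and 1.26 in HFD and 1.48, 1.33 and 2.16 in LFD replicates 1 to 3, with a narrow gap between HFD replicate 3 and LFD replicate 2. *Hibch* to *Bckdhb* overlapped, with a median of 2.25 in LFD-fed mice and 1.87 in HFD-fed mice. The skeletal muscle markers (146, 416 and 31.9 against 6685, 16077 and 2288 summed TPM in HFD and LFD replicates 1 to 3) separated the same mice. *Adipoq*, an adipocyte hormone gene, was at 640, 689 and 388 TPM in HFD and 1823, 2015 and 470 TPM in LFD replicates 1 to 3, and all 5 adipocyte markers had log2 fold changes below 0. The brown adipocyte markers went the other way. Of these 12 genes, 10 had log2 fold changes above 0 (45.6% of all genes) and 2 below, with a median of 1.68. The part of these cell types in the ratios was not tested.

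**Figure D3:**
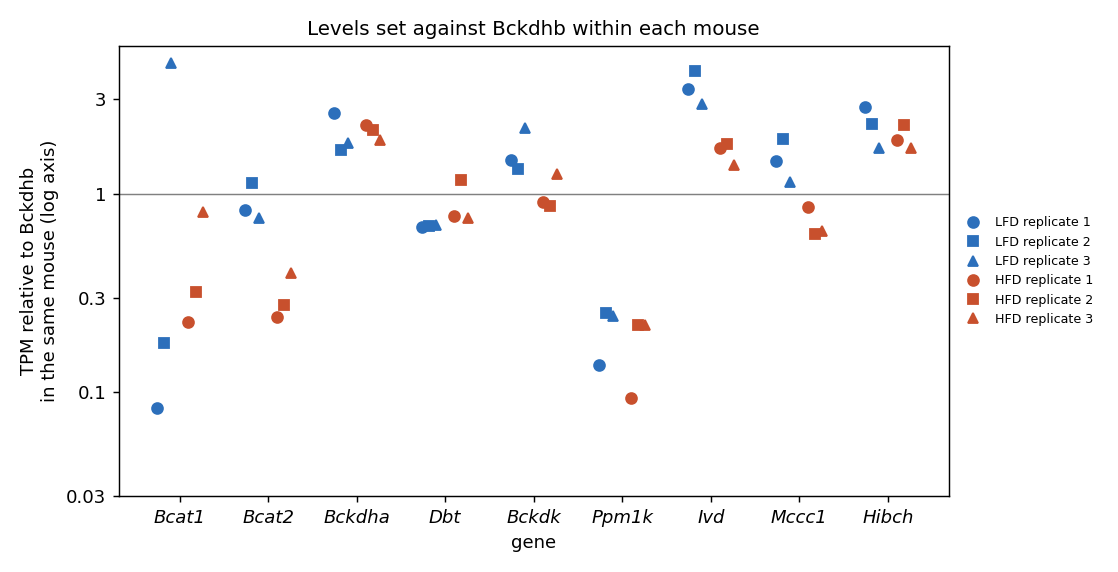
TPM of each of the 9 other members divided by the TPM of *Bckdhb* in the same mouse (log axis); blue points are LFD-fed, orange points HFD-fed mice, and symbols give the replicate number. For *Bcat2*, *Bckdk*, *Ivd* and *Mccc1* all orange points lie below all blue points, and *Bckdha*, *Hibch*, *Ppm1k* and *Bcat1* overlap; *Dbt* separates narrowly upwards in TPM but overlaps in log2 CPM.

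Across the 6 mice the members other than *Bcat1* varied together. All 36 pairs without *Bcat1* had a Pearson r above 0 in log2 CPM (0.48 to 0.99, median 0.89), and all 9 pairs with *Bcat1* were below 0 (-0.91 to -0.57). The highest r were those of *Ivd* with *Mccc1* (0.99) and *Bckdha* with *Bckdhb* (0.99), while *Bcat2* had an r of 0.92 with *Ivd* and with *Mccc1* and of 0.48 with *Dbt*. These are descriptions over 6 mice that share the diet groups and 1 mouse, LFD replicate 3, at an extreme of every gene. The genes outside the lists whose log2 CPM followed the mean of the members most closely over the 6 mice were *D330023K18Rik* (r = 0.999), *Apoc1* (0.998), *Ganc* (0.997), *Gm6277* (0.996) and *Adhfe1* (0.995).

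**Figure D4:**
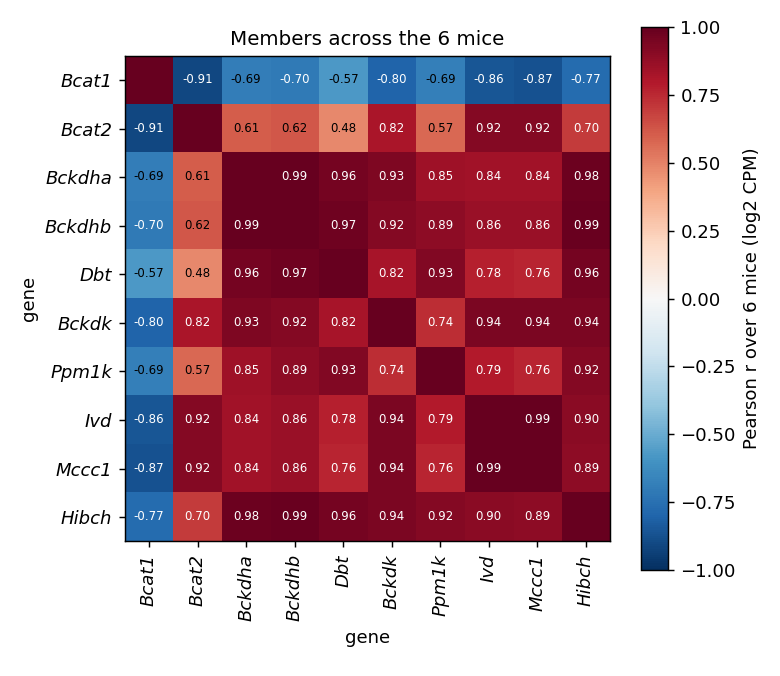
Pearson r over 6 mice between the log2 CPM of each pair of members; red is positive and blue negative, and each cell prints its r. *Bcat1* is negative against all 9 others, and the remaining 36 pairs are positive, with *Bcat2* closest to *Ivd* and *Mccc1*.

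The other 25 genes of the pathway had log2 fold changes on both sides of 0, as the members did. In edgeR's quasi-likelihood test 0 passed the study thresholds. At an unadjusted p under 0.05, 2 were lower (6.62% of all genes) and 0 higher (3.86%). Their median log2 fold change was -0.01, with 13 below 0 (54.4% of all genes) and 12 above (45.6%). By log2 CPM, 1 was lower (9.23% of all genes) and 2 were higher (6.72%) in every HFD-fed mouse than in every LFD-fed mouse. DESeq2 called 1, *Slc43a1*. With the replicate block 8 had an unadjusted p under 0.05, 2 lower (8.76% of all genes) and 6 higher (8.75%).

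*Slc43a1*, a sodium-independent transporter of branched-chain amino acids, had the largest diet difference of the pathway. It was at 2.78, 3.68 and 2.97 TPM in HFD and 28.1, 44.1 and 12.6 TPM in LFD replicates 1 to 3, so that all HFD-fed mice lay below all LFD-fed mice. The log2 fold change was -2.87 ± 0.55 (SE, adjusted p = 0.173, edgeR's quasi-likelihood test), and without LFD replicate 3 it was -3.30 (adjusted p = 0.020, edgeR). Of the other import genes, *Slc43a2*, *Slc3a2* and *Slc7a8* code for neutral amino acid transporters or, for *Slc3a2*, their shared heavy chain. *Slc7a8* was at 5.62, 7.85 and 17.4 TPM in HFD and 2.95, 5.96 and 10.9 TPM in LFD replicates 1 to 3, with a log2 fold change of 0.92 ± 0.39 (SE, adjusted p = 0.476, edgeR's quasi-likelihood test). *Slc43a2* (0.60 ± 0.27) and *Slc3a2* (0.33 ± 0.20) had small positive log2 fold changes, did not overlap between the diets in log2 CPM but did in TPM, and did not pass the test either. The skeletal muscle markers given above moved with *Slc43a1*, and their part was not tested.

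*Klf15*, a transcription factor known to raise amino acid breakdown genes, was at 8.22, 12.2 and 3.85 TPM in HFD and 47.5, 40.9 and 10.1 TPM in LFD replicates 1 to 3. In TPM, HFD replicate 2 was just above LFD replicate 3 and the other mice were apart. In log2 CPM, HFD replicates 1 and 2 (4.52 and 4.37) were both above LFD replicate 3 (3.75). The difference was -1.93 ± 0.81 on the log2 scale (SE, adjusted p = 0.476, edgeR's quasi-likelihood test) and -1.66 with the replicate block (adjusted p = 0.086, edgeR).

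In the arms after the complex the genes with the highest levels or smallest p were few and mixed. *Acadsb*, the short branched-chain acyl-CoA dehydrogenase of the isoleucine arm, was at 94.0, 131 and 65.4 TPM in HFD and 202, 244 and 85.4 TPM in LFD replicates 1 to 3 (log2 fold change -0.75 ± 0.55, SE). *Mcee*, methylmalonyl-CoA epimerase of the propionate arm, was at 81.0, 123 and 39.1 TPM in HFD and 57.2, 44.7 and 23.5 TPM in LFD replicates 1 to 3 (1.03 ± 0.67). *Dld*, the E3 subunit that this complex shares with pyruvate dehydrogenase, was at 207, 274 and 98.1 TPM in HFD and 187, 121 and 57.5 TPM in LFD replicates 1 to 3 (0.73 ± 0.75). *Acad8*, the acyl-CoA dehydrogenase of the valine arm, was named after its values were seen, beside *Ivd* and *Acadsb* with their lower means, and had a log2 fold change of 0.34 ± 0.46. *Echs1*, the enoyl-CoA hydratase shared with fatty acid oxidation, had a log2 fold change of 0.46 ± 0.77 and *Oxct1*, which activates ketone bodies, of 0.10 ± 0.51, the latter being -0.16 on the log2(TPM + 1) scale. None of these passed the test.

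Other mitochondrial pathways gave a scale for these values. All 17 genes of the tricarboxylic acid (TCA) cycle had log2 fold changes above 0 (median 1.01) and so did all 14 of fatty acid oxidation (median 1.38), beside 45.6% of all genes, while 1 of each list had an unadjusted p under 0.05 and none passed the study thresholds with edgeR. With the replicate block 14 and 12 of them had an unadjusted p under 0.05, beside 8.75% of all genes that were higher in that fit. Without LFD replicate 3 the numbers were 0 and 1, the medians 0.56 and 1.02, and 16 of 17 and 14 of 14 genes were above 0. *Cpt1b*, which brings fatty acids into mitochondria, was at 349, 493 and 163 TPM in HFD and 121, 56.5 and 22.2 TPM in LFD replicates 1 to 3 (log2 fold change 2.48 ± 0.90, SE). Against these, the members as a group had a median of -0.00, which was 0.45 with the replicate block (6 of 10 above 0) and -0.20 without LFD replicate 3 (3 of 10 above 0), and the 11 genes of pyruvate dehydrogenase and its regulators one of 0.04, with the kinase *Pdk4* at 1.99 ± 0.72 (adjusted p = 0.409, edgeR's quasi-likelihood test).

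The mean log2 CPM of the members minus that of the TCA cycle genes was -2.81, -2.53 and -2.39 in HFD and -2.07, -1.23 and -1.56 in LFD replicates 1 to 3. Against fatty acid oxidation it was -2.83, -2.68 and -2.51 in HFD and -1.76, -0.98 and -1.31 in LFD replicates 1 to 3. In both cases every HFD-fed mouse was below every LFD-fed mouse. LFD replicate 3 was not extreme in these differences. All the means that enter them were lowest in that mouse, at 4.81 for the members, 6.37 for the TCA cycle and 6.12 for fatty acid oxidation. The mean of the members includes *Bcat1*, which was highest there. The diets overlapped when the members were set against pyruvate dehydrogenase and its regulators. That difference was -0.43, -0.35 and -0.56 in HFD and -0.42, -0.004 and -0.18 in LFD replicates 1 to 3. Against the other 25 genes of the pathway the mean of the members was 0.06, 0.20 and -0.14 in HFD and -0.01, 0.09 and -0.14 in LFD replicates 1 to 3, which overlapped. These differences between lists were formed after the values had been seen and carry no test. *Ucp1* was at 2728, 4021 and 796 TPM in HFD and 443, 11.03 and 76.0 TPM in LFD replicates 1 to 3, and its part was not tested.

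**Figure D5:**
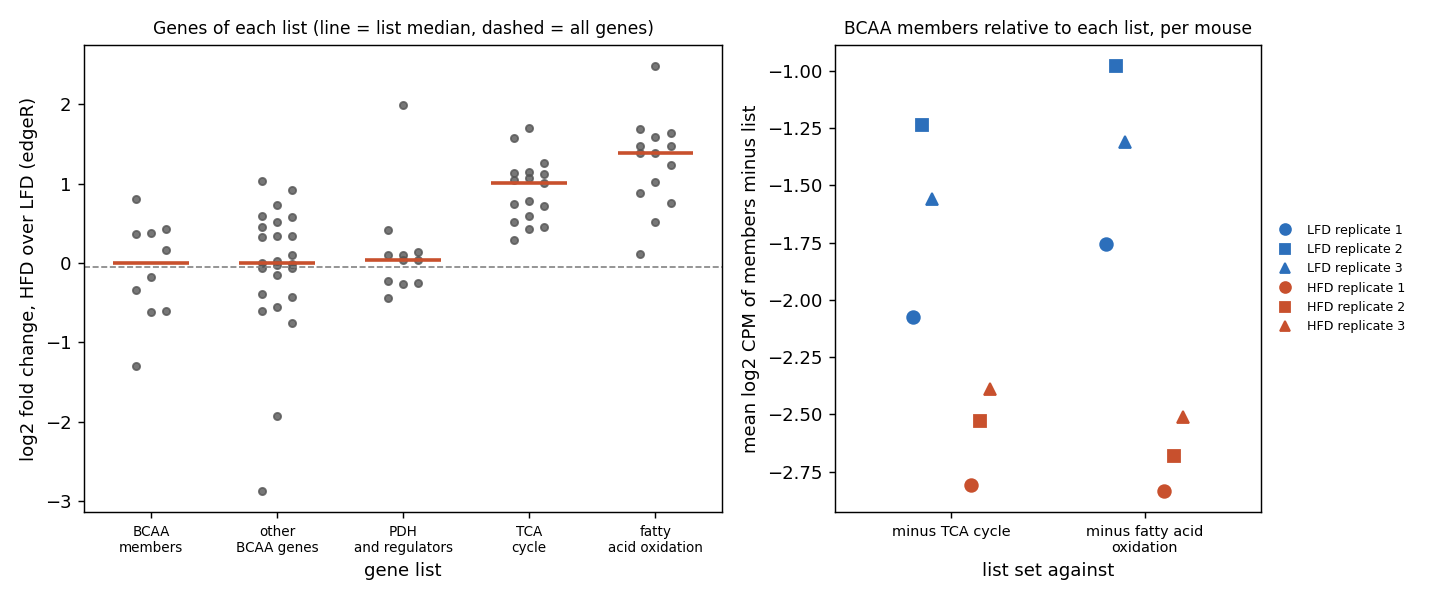
Left, log2 fold change (HFD over LFD, edgeR) of each gene of 5 lists, with the list median as a line and the median of all tested genes (-0.05) dashed; right, mean log2 CPM of the 10 members minus the mean of the TCA cycle or fatty acid oxidation genes in each mouse, blue LFD-fed and orange HFD-fed. All TCA cycle and fatty acid oxidation genes lie above 0, the members lie on both sides, and the orange points are below all blue points at right.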

How the data were processed

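Brown adipose tissue of 6 mice was sequenced in single-end reads of 75 bases after depletion of ribosomal RNA. The authors trimmed reads with Trimmomatic 0.36 and quantified them with RSEM 1.3.0 on GRCm38.p4 with an Ensembl annotation. The deposited expected counts are not normalized, need not be whole, and split a read that matches several genes. The deposited TPM values are scaled by effective length to a fixed total per sample. RSEM interval bounds were also deposited and were read but are not used in a test.

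Expected counts were rounded and tested in R 4.3.3 with edgeR 4.0.16 (quasi-likelihood test, TMM, filterByExpr, Benjamini-Hochberg over all 17668 genes, prior count 2 for log2 CPM). Scripts were tested on simulated data. Mice were grouped by diet and numbered from the labels. The sources do not say that equal numbers mark matched mice, but deviations of same-numbered mice from their diet means correlated across genes with r of 0.50, 0.23 and 0.52, so the number was also used as a block. Ratios of TPM used a pseudocount of 0.1 and exact permutation tests, and those set against *Bckdhb* or *Bckdha* used none. No pair of mice was a repeated library (a chi-square between 71.7 and 558 per degree of freedom). P-values cover the spread between 3 mice a diet. Positions are from GENCODE M21 (GRCm38).

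The members and gene lists were chosen with earlier results of these data known. The rule for named genes took all members, the 8 of the other 25 pathway genes with the smallest p and the 3 with the highest mean TPM, up to 3 of each kind from every other list, and the 5 genes most like the mean of the members. Not all genes that the rule allows are described. Alternatives were DESeq2 1.42.0, limma 3.58.1 on log2(TPM + 1), RLE size factors, other filters on low counts, the block, and each mouse left out.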

Additional observations from a re-analysis of the deposited data

How the results depend on the processing

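None of the members passed the study thresholds in any of the 13 alternatives. Over all genes DESeq2 called 306 lower and 106 higher, and limma on log2(TPM + 1) called 0 lower and 1 higher. At an unadjusted p under 0.05, the higher genes numbered 1546 with the replicate block, 296 with limma and 1041 with DESeq2, and 396 to 1405 with 1 mouse left out, while the lower genes then numbered 710 to 1741. Among the members, lower genes numbered 1 without a filter on low counts, 1 with the block, 1 with limma and 0 to 1 with a mouse left out, and higher genes 2 with the block and 0 to 1 with a mouse left out. Among the other 25 pathway genes, DESeq2 called 1 lower; at an unadjusted p under 0.05, lower genes numbered 1 with RLE size factors, 1 with at least 10 counts in every mouse and 1 to 3 with a mouse left out, and higher genes 1 with RLE, 1 without a filter, 6 with the block, 1 with DESeq2 and 0 to 3 with a mouse left out. The block changed no call at the study thresholds. The cause of these shifts was not tested.

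The log2 fold change of *Bcat1* was 0.48 with the block, 0.23 with limma on log2(TPM + 1), and -0.82 to 1.43 with a mouse left out, the highest without LFD replicate 3. With a mouse left out, values crossed 0 for *Bckdha* (-0.086 without LFD replicate 3 to 1.47; -0.054 without HFD replicate 1), *Bckdhb* (-0.0059 without LFD replicate 3 to 1.13), *Bckdk* (-0.51 to 0.43 without LFD replicate 1; 0.076 without HFD replicate 3), *Ivd* (-1.09 to 0.026 without LFD replicate 1), *Mccc1* (-1.13 to 0.016 without LFD replicate 1), *Hibch* (-0.31 without LFD replicate 3 to 1.08; -0.067 without HFD replicate 1 and -0.070 without HFD replicate 2), *Echs1* (-0.0029 without LFD replicate 3 to 1.43) and *Oxct1* (-0.23 without HFD replicate 1 to 0.50; -0.21 without LFD replicate 3). *Oxct1* was at -0.16 with limma. The *Bckdhb* to *Bckdha* ratio ranged from -0.25 to 0.059 with a mouse left out, and was above 0 without LFD replicate 2 or 3. *Bcat2* stayed below 0 (-1.76 to -0.77) and *Dbt* above 0 (0.40 to 1.40) in all 13 alternatives.

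The median log2 fold change of all genes was -0.05 with TMM, -0.04 with RLE, 0.04 with library totals and -0.18 on the log2(TPM + 1) scale. With 3 mice a diet and LFD replicate 3 far from its group, intervals of the members span several-fold changes, so differences of that size could not be detected. Members had 139 to 4904 counts in a mouse, and RSEM's own interval spanned 6.61% to 59.7% of a TPM value.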
